A study of Mus musculus and Homo sapiens with 9 samples.

Results

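The mitochondrial ribosomal protein genes, whose symbols in mouse begin with Mrpl or Mrps, were examined in the TDG and p53 peak lists of B16 cells, a mouse melanoma line. They were taken by symbol alone from the RefSeq annotation of GRCm38, whose coordinates are those of mm10. The rule kept symbols made of Mrps or Mrpl, a number and at most 1 lower-case letter, and it gave 78 of 21887 protein-coding genes on placed chromosomes. Of these, 49 carried an Mrpl and 29 an Mrps symbol, and they lay on 17 of 21 chromosomes. The comparison was with the 19397 other protein-coding genes on those 17 chromosomes.

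By ChIP-seq, in which DNA fragments bound to a protein are pulled down and sequenced, the series mapped the DNA repair enzyme TDG and the tumour suppressor p53, a transcription factor. TDG (thymine DNA glycosylase) cuts out thymine mispaired with guanine and oxidised forms of methylcytosine, so it acts in DNA repair and in the removal of DNA methylation. The TDG list came from B16 cells with the genotype Tdg HA knockin and an antibody against the HA tag, with no further treatment given in the labels. The p53 list came from cells of the same genotype and a p53 antibody. Each list stood for 1 library with no replicate, so no test between samples was possible. Of the 9 samples, 7 were not analysed here, among them the HA antibody in WT cells, the p53 antibody in Trp53 KO cells, IgG and input. Dependence of the peaks on the tag or on p53 was therefore not tested. Whether the knock-in line was 1 clone is not given in the sources used here. Peak lists measure no RNA, so the labelled cell type was not checked against markers.

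The TDG list held 3410 peaks with a median of 24 reads at the summit, and the p53 list held 126 peaks. Fold enrichment is the authors' value for each peak, the reads at the summit over the local background after a small constant is added to both. Binomial intervals are exact (Clopper-Pearson), at 95%, and cover counting error only.

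Mitochondria have their own ribosome, which translates the few membrane proteins of the respiratory chain that mitochondrial DNA encodes. Its ribosomal RNAs come from mitochondrial DNA, but every one of its proteins is encoded in the nucleus and imported. The Mrpl symbols stand for the large subunit, which forms peptide bonds, and the Mrps symbols for the small subunit, which reads the messenger RNA. Some of these proteins descend from bacterial ribosomal proteins and others are specific to mitochondria. The genes are expressed in nearly all cells.

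The starts of 4 members with a TDG peak, the highest by fold enrichment among those with a listed start, are shown together with those of 2 members without a TDG peak, which had the highest CpG counts of that group. Each runs 5′ to 3′ on the coding strand over 300 bases, from 250 before the start to 50 from it (RefSeq, GRCm38.p6), with every CpG in capitals, since CpG is where DNA methylation and its removal take place.

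Mrpl51 (chr6:125191950-125192249, plus strand): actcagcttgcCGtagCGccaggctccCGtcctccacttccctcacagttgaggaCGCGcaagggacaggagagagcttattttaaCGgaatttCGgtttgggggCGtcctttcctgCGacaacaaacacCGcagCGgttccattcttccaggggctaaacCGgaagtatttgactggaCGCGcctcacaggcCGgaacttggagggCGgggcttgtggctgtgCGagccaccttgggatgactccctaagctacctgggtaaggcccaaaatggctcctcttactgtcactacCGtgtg

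Mrpl40 (chr16:18876588-18876887, minus strand): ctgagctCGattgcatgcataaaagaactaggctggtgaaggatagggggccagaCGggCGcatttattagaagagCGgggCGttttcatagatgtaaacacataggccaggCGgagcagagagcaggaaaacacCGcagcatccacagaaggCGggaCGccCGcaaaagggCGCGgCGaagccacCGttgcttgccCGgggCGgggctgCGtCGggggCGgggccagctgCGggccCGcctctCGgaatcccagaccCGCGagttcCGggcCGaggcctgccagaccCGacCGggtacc

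Mrpl17 (chr7:105811038-105811337, minus strand): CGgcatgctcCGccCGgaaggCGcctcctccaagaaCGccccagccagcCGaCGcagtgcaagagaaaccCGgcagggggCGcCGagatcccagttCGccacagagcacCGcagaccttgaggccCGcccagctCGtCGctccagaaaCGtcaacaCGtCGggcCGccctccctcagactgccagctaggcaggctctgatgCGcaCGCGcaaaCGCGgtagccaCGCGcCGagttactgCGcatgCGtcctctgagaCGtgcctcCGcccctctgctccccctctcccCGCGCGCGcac

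Mrps14 (chr1:160194965-160195264, plus strand): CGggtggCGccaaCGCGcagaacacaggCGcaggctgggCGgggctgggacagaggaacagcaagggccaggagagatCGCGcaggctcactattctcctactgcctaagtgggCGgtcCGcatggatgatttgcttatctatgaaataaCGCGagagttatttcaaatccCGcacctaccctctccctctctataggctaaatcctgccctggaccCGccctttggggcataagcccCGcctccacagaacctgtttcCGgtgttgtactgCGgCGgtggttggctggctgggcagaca

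Mrpl49, without a TDG peak (chr19:6057706-6058005, minus strand): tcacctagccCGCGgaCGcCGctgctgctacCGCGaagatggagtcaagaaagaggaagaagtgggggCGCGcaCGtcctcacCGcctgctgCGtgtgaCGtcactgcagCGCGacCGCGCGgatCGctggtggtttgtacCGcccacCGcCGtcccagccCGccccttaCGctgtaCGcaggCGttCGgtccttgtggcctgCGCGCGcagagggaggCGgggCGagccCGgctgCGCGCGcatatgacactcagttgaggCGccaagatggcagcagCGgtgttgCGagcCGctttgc

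Mrps7, without a TDG peak (chr11:115603890-115604189, plus strand): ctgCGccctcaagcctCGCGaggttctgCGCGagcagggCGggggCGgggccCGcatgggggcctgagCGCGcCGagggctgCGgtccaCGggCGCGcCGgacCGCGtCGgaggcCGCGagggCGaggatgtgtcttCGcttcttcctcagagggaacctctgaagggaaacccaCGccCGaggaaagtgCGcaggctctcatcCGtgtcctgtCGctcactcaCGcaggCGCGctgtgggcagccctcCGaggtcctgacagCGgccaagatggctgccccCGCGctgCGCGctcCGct

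The 4 promoters with a peak held 18, 28, 35 and 18 CpG in the order printed, and the 2 without held 39 and 38. The 2 without a peak were chosen for their CpG counts, so the printed promoters do not compare CpG content with and without a peak. The TDG summit fell on base 245 of the Mrpl40 sequence, base 181 of that of Mrpl17 and base 154 of that of Mrps14. The summit at Mrpl51 lay further upstream, outside the stretch shown.

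TDG was called at an end of 15 of the 78 mitochondrial ribosomal protein genes (19.2%, interval 11.2 to 29.7%), counted as a summit within 1 kb of either end of the gene. The same held for 2488 of the 19397 other protein-coding genes on the same chromosomes (12.8%), a share inside the members' interval. The other 63 members had no TDG peak at an end. The 15 were Mrpl2, Mrpl17, Mrpl30, Mrpl36, Mrpl40, Mrpl41, Mrpl51, Mrpl53, Mrpl54, Mrps6, Mrps14, Mrps18b, Mrps26, Mrps33 and Mrps36. Only Mrpl2 had a peak at both ends, so the members had 16 TDG peaks in all.

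The member peaks had a lower median fold enrichment than the peaks at other genes. Their fold enrichment ran between 3.86 and 7.27, with a median of 5.34 and quartiles of 4.88 and 5.81. The 2284 peaks at ends of other protein-coding genes had a median of 5.99 and quartiles of 5.14 and 6.94. At or above 5.74, the median of the whole list, lay 4 of the 16 member peaks (25.0%) and 1222 of the 2284 others (53.5%). Summit reads of member peaks ran between 17 and 31 with a median of 22, against a median of 24 for the others. The quartiles of the 2 sets overlapped, and the median percentile of the member peaks in the whole list was 35.7, with an interval from 13.5 to 58.9 that holds the middle of the list.

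**Figure D1:**
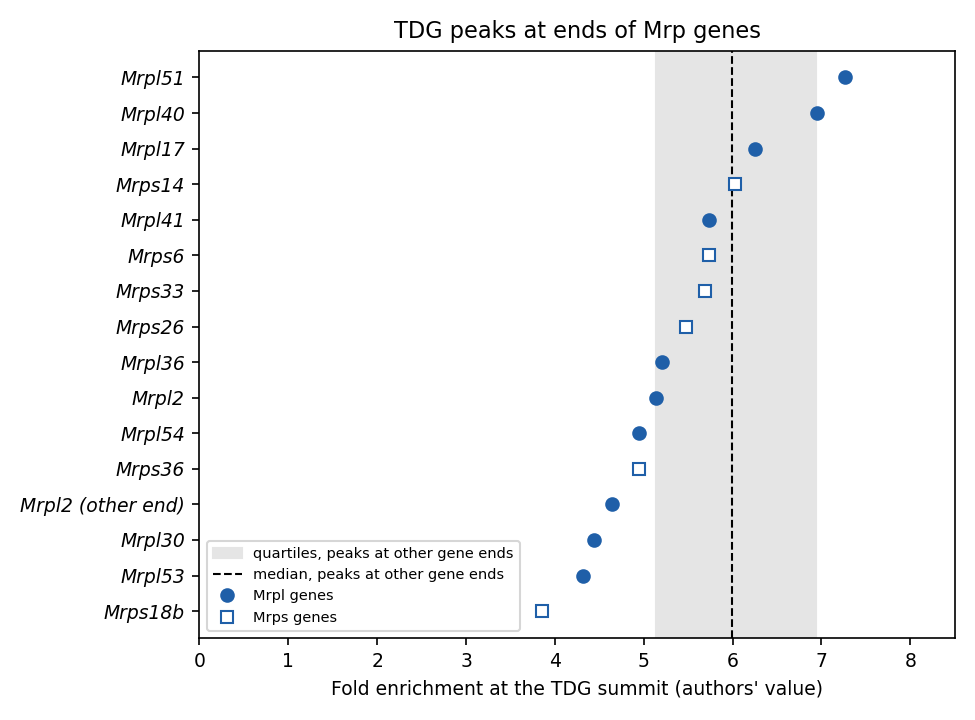
Fold enrichment (authors' value, x axis) of the 16 TDG peaks at ends of mitochondrial ribosomal protein genes, 1 point per peak, filled for Mrpl and open for Mrps genes. The dashed line and grey band are the median (5.99) and quartiles (5.14 and 6.94) of the 2284 peaks at ends of other protein-coding genes. Only Mrpl51 and Mrpl40 lie above the band.

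Among large subunit genes, Mrpl51 had the highest peak, 7.27-fold with 31 reads at the summit and a −log10 q of 13.4 (chromosome 6, 125191380 to 125192243). It encodes a mitochondria-specific protein. The summit lay 600 bases upstream of the Mrpl51 start and 500 bases inside Ncapd2, a condensin subunit gene read in the opposite direction. Mrpl40 came next with 6.95-fold, 29 reads and the widest of the member peaks, 992 bases (chromosome 16, 18876172 to 18877163). The Mrpl40 summit lay 6 bases upstream of its start and 107 bases from the start of Hira, which encodes a histone H3.3 chaperone. By rank, these were peaks 605 and 748 of the 3410.

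Mrpl17, whose product descends from bacterial L17, had a peak of 6.25-fold with 23 reads (chromosome 7, 105811029 to 105811296), 70 bases upstream of its start and with no other protein-coding gene end within 1 kb of the summit. Mrpl41 encodes a mitochondria-specific protein and had 5.73-fold with 21 reads, 158 bases upstream. Mrpl36 encodes the relative of the small bacterial protein L36. Its summit (5.21-fold, 19 reads) lay 930 bases inside the upper end of the gene record but 239 bases downstream of the start in the promoter table, since the record begins upstream of that start. It was the member closest to the edge of the 1 kb window. The next gene out was Mrpl49, whose nearest TDG summit was 6612 bases away (5.21-fold).

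Mrpl2 encodes the relative of bacterial L2, which lies close to the site of peptide bond formation. Its 2 peaks differed in place: one of 5.14-fold with 19 reads lay 222 bases upstream of the listed start, and the other, of 4.64-fold with 24 reads, lay 320 bases beyond the stop end. The second summit was 114 bases from the start of Cul7, a cullin gene, and 4215 bases from the Mrpl2 start. Mrpl54 (4.95-fold, 18 reads), Mrpl30 (4.44-fold, 17 reads) and Mrpl53 (4.32-fold, 27 reads) had the lowest large subunit peaks at a start or, for Mrpl54, at the upper end of a gene with no listed start. Mrpl53 had more summit reads than Mrpl2 but a lower fold enrichment, because its local background was 5 reads and that of the Mrpl2 start peak 2.61.

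Among small subunit genes, Mrps14 had the highest peak, 6.03-fold with 23 reads (chromosome 1, 160194991 to 160195264), 97 bases upstream of its start. Mrps14 and Mrps6 encode relatives of bacterial S14 and S6. Mrps6 had 5.73-fold with 21 reads, and its summit was 157 bases upstream of its start and 143 bases from an end of Slc5a3, an inositol transporter gene on the same strand. Mrps33 (5.69-fold, 30 reads) and Mrps26 (5.47-fold, 20 reads) encode mitochondria-specific proteins, with summits 37 and 200 bases inside the gene. Mrps36 had 4.95-fold with 18 reads, 215 bases inside the gene. Its product is now known as a subunit of the alpha-ketoglutarate dehydrogenase complex, so it is a ribosomal gene by symbol rather than by role. Mrps18b, a member of the S18 family, had the lowest member peak, 3.86-fold with 24 reads over a local background of 5 reads.

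The subunits did not stand apart from each other in how often TDG was called. Mrps genes had a TDG peak in 6 of 29 cases (20.7%, interval 7.99 to 39.7%) and Mrpl genes in 9 of 49 (18.4%, interval 8.76 to 32.0%). Of the genes placed as mitochondria-specific, 8 of 31 (25.8%, interval 11.9 to 44.6%) had one, against 6 of 46 genes (13.0%, interval 4.94 to 26.3%) placed as having bacterial relatives. These intervals overlapped in both comparisons. The mitochondria-specific group holds Mrps18a and Mrps18b, which by symbol are of the S18 family, and Mrps18b is among its 8 genes with a peak. The difference between these groups thus depends on how such genes are placed. By symbol Mrps30 and Mrps18a belong to the small subunit although their proteins sit in the large one, and neither had a TDG peak at an end.

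Most TDG peaks at the members, 14 of 16, lay within 1 kb of a listed start of the member, the others being the second peak of Mrpl2 and that of Mrpl54, which has no listed start. Of the 15 members with a peak, 14 had a start in the RefSeq promoter table, which also gives the strand, and 14 of these 14 had a summit within 1 kb of a listed start. For other genes with an end peak and a listed start the figure was 1950 of 2094 (93.1%). These shares lay close to each other. Relative to the start, member summits ran between 600 bases upstream (Mrpl51) and 239 bases downstream (Mrpl36). They fell within 250 bases of it in 12 of 14 cases (85.7%), compared with 77.5% of 2254 gene and peak pairs for other genes. Upstream summits made up 9 of the 14 (64.3%) and 66.1% of the other pairs.

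**Figure D2:**
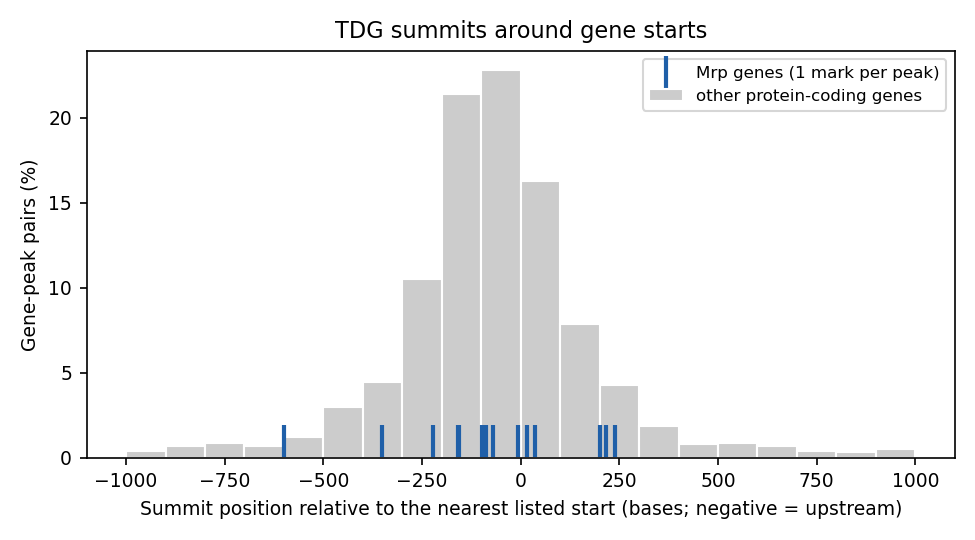
Position of TDG summits relative to the nearest listed gene start in bases, with negative values upstream. Grey bars give the share of 2254 gene and peak pairs of other protein-coding genes in bins of 100 bases, and blue marks the 14 summits at mitochondrial ribosomal protein genes, whose height has no meaning. Of these, 12 lie within 250 bases of the start.

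Most of the member peaks were also within reach of a neighbour, though not always at a like distance. Of the 16 peaks, 10 (62.5%) were also within 1 kb of an end of another protein-coding gene. Of the 2284 peaks at other gene ends, 448 (19.6%) were at the ends of several genes. These shares are not on the same basis, since a shared peak is more likely to be reached through a chosen set of genes. Counted by gene, 6 of the 15 members with a peak had one of their own, against 1678 of 2488 other genes. In 6 of the 10 the summit lay by starts on opposite strands: Mrpl2 and Klc4, Mrpl30 and Mitd1, Mrpl40 and Hira, Mrpl41 and Pnpla7, Mrpl51 and Ncapd2, and Mrps18b and Ppp1r10. The other 4 were shared with Cul7, Ccdc142 (Mrpl53), Apba3 (Mrpl54) and Slc5a3. Cul7 and Slc5a3 are on the same strand as the member. No strand was listed for Ccdc142 or Mrpl54, so whether those pairs are on opposite strands is not known here. The share of opposite starts among shared peaks of other genes was not counted. The genes with a peak of their own were Mrpl17, Mrpl36, Mrps14, Mrps26, Mrps33 and Mrps36, which is 6 of 78 (7.69%), beside 8.65% of other genes counted the same way.

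Close neighbours were common in the whole family. Another gene's end lay within 1 kb of an end of 44 of the 78 members (56.4%), against 4954 of the 19397 other genes (25.5%). TDG was called at 10 of those 44 members (22.7%) and at 22.7% of the 4954 others with a close neighbour. Without a close neighbour it was called at 5 of 34 members (14.7%, interval 4.95 to 31.1%) and at 9.44% of other genes. Applied to the members, these rates of other genes gave 13.2 members with a peak, against 15 observed. A close pair was no guarantee of a peak, since Mrpl46 and Mrps11, which lie side by side on opposite strands of chromosome 7, had their nearest TDG summits 683064 and 673165 bases away.

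CpG content was set beside the calls for the 69 members with a listed start. Mrps34, Mrps35, Mrps28, Mrpl4, Mrpl13, Mrpl15, Mrpl19, Mrpl38 and Mrpl54 were not listed. TDG was called at a start of 14 of the 69 (20.3%, interval 11.6 to 31.7%) and of 14.0% of 15800 other genes with a listed start. The members' promoters held a median of 21 CpG in 300 bases (quartiles 16 and 26), those of other genes a median of 14 (quartiles 4 and 25). Among promoters with at least 21 CpG, TDG was called at 10 of 37 members (27.0%, interval 13.8 to 44.1%) and at 25.9% of 5445 other genes. Below that count it was called at 4 of 32 members (12.5%, interval 3.51 to 29.0%) and at 7.76% of other genes. Other genes with the members' distribution of CpG counts, in bins of 5, would have given 14.9 calls, against the 14 observed. The share of members with a TDG peak at the start was thus close to that of other genes with like CpG content.

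**Figure D3:**
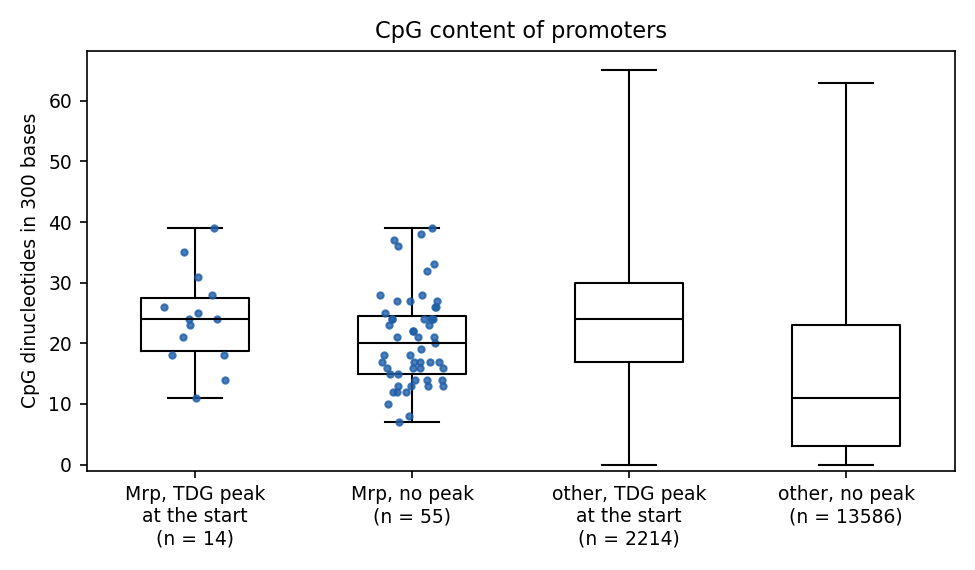
CpG dinucleotides in the 300 bases around the start, for mitochondrial ribosomal protein genes with (14) and without (55) a TDG peak at the start, shown as points, and for other protein-coding genes with (2214) and without (13586) one. Boxes give the median and quartiles and whiskers the lowest and highest value. Medians are 24, 20, 24 and 11 in that order.

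Within the family, promoters with a TDG peak held a median of 24 CpG (lowest 11, highest 39) and those without a median of 20 (lowest 7, highest 39), so the ranges overlapped almost entirely. Mrps6 had the highest count of those with a peak and Mrps36 the lowest. Median G+C content was 61.8% with a peak and 58.0% without.

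Motifs known from promoters of housekeeping and mitochondrial genes were searched on both strands of the same 300 bases. Matches of different motifs may overlap. The ETS core CCGGAAG was found in 24 of 69 member promoters (34.8%, interval 23.7 to 47.2%) and in 12.1% of other promoters. The YY1 sequence ATGGCGGC was found in 12 of 69 (17.4%, interval 9.32 to 28.4%) and in 3.19% of other promoters. The palindrome CGCATGCG at the centre of the NRF1 site was found in 7 of 69 (10.1%, interval 4.18 to 19.8%) and in 2.56% of other promoters. For these 3 motifs the members' intervals lay above the share of other promoters. The CCAAT box was in 39.1% of member and 39.1% of other promoters, and the SP1/KLF box GGGCGG in 49.3% of member and 47.1% of other promoters.

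The picture changed among promoters with at least 21 CpG, 37 of members and 5445 of other genes. This cut did not make the groups alike. The member promoters above it held a median of 25 CpG and 63.3% G+C, the others 28 CpG and 67.3% G+C. Whether the motif shares follow that difference was not tested. There the SP1/KLF box was in 20 of 37 member promoters (54.1%, interval 36.9 to 70.5%) and in 82.2% of the others, which is above the members' interval. The ETS core was in 14 of 37 (37.8%, interval 22.5 to 55.2%) and in 20.3% of the others, below that interval. YY1 was in 6 of 37 (16.2%, interval 6.19 to 32.0%) and in 6.23%, and NRF1 in 5 of 37 (13.5%, interval 4.54 to 28.8%) and in 4.50%. The YY1 share of the others was just inside the members' interval and the NRF1 share just below it. Of the printed promoters, Mrpl51 and Mrpl17 held an ETS match, Mrpl17 an NRF1 match, and all 6 at least 1 SP1/KLF match. A match describes the letters only and is not a measured site.

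For none of the 7 motifs did the intervals of members with and without a TDG peak at the start lie apart. The ETS core occurred in 6 of 14 promoters with a peak (42.9%, interval 17.7 to 71.1%) and in 18 of 55 without (32.7%, interval 20.7 to 46.7%). The SP1/KLF box occurred in 10 of 14 (71.4%, interval 41.9 to 91.6%) and in 24 of 55 (43.6%, interval 30.3 to 57.7%), which are overlapping intervals. For other genes the SP1/KLF shares were 76.2% with a peak and 42.3% without. The CCAAT box was found in 6 of 14 and 21 of 55, and YY1 in 1 of 14 and 11 of 55. The CRE sequence TGACGTCA and the Ronin/ZNF143 sequence ACTACANNT were in 0 of 14, and in 2 and 6 of 55.

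The members with a peak were also counted by chromosome. At the rates of other genes, each chromosome would hold between 0.092 (chromosome 14) and 2.18 (chromosome 11) of them. Differences between chromosomes thus rest on small counts and were not tested. The 15 members lay on 8 of the 17 chromosomes, and 38 of the 78 members were on chromosomes where no member had a TDG peak. Chromosome 6 had 3 of 7 members with a peak, and there 25.6% of other genes had one. Chromosomes 1, 2, 13, 16 and 17 had 2 members each with a peak, and chromosomes 7 and 10 had 1 each. Chromosome 11 held the most members, and 0 of its 11 had a TDG peak although 19.8% of the other genes there did, a rate that would give 2.18 members. The 11 were Mrpl10, Mrpl12, Mrpl22, Mrpl27, Mrpl38, Mrpl45, Mrpl55, Mrpl58, Mrps7, Mrps23 and Mrps24. They include the gene for Mrpl12, known in human cells to bind the mitochondrial RNA polymerase, and this chromosome was singled out after its values were seen. At each chromosome's own rate the 78 members would have given 10.8 genes with a peak (13.8%).

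**Figure D4:**
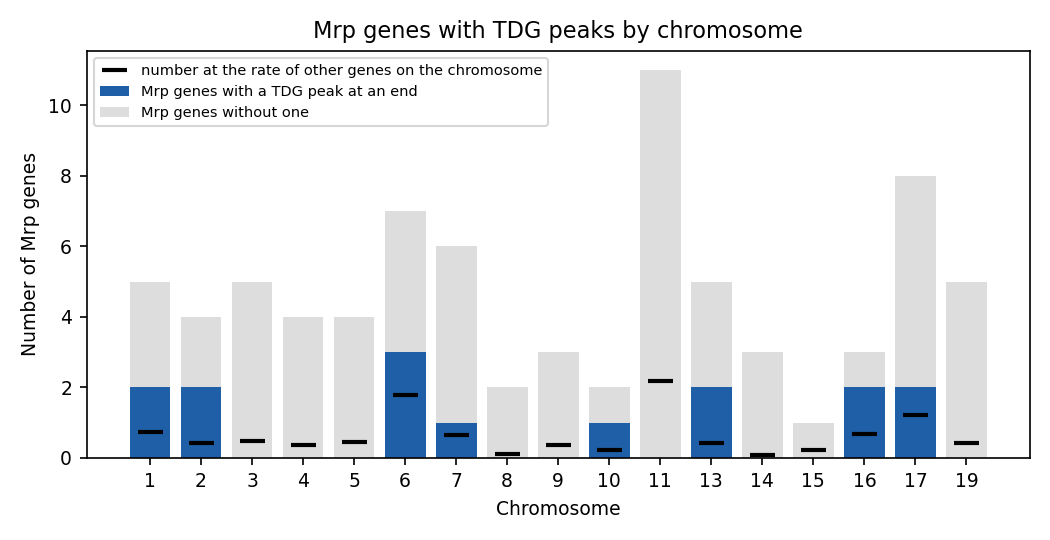
Number of mitochondrial ribosomal protein genes on each chromosome that holds any, with (blue) and without (grey) a TDG peak at an end. Black bars give the number with a peak at the rate of the other protein-coding genes of that chromosome. Chromosome 11 has 11 genes, none with a peak, where that rate gives 2.18.

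Members whose nearest TDG summit was close to an end but not at it were few, and differences from other genes were not tested. The shares are of all genes, with or without a peak at an end. The nearest TDG summit lay between 1 and 10 kb of an end for 2 of 78 members (2.56%), Mrpl49 (6612 bases) and Mrpl35 (7573 bases, 6.91-fold), against 6.55% of other genes. It was over 100 kb from both ends for 29 of the 78 (37.2%) and for 56.1% of other genes, and for Mrps28 it was 23586713 bases away. A TDG summit in the gene over 1 kb from both ends was found in 0 of 78 members, with an exact upper limit of 4.62%, and in 3.29% of other genes, a share below that limit. The median gene length was 7690.5 bases for members and 17114 bases for other genes.

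The other genes of mitochondrial translation gave shares whose intervals each held the 12.8% of other genes. Of 5 mitoribosome subunits with other symbols 1 had a TDG peak at an end (20.0%, interval 0.505 to 71.6%), namely Ptcd3 with 4.83-fold. Assembly and ribosomal RNA factors had one in 4 of 25 cases (interval 4.54 to 36.1%). These were Tfb1m (6.06-fold), an RNA methyltransferase, the methyltransferase gene Mrm1 (5.99-fold), the GTPase gene Noa1 (5.73-fold) and Malsu1 (5.28-fold). Translation factors had one in 3 of 15 (20.0%, interval 4.33 to 48.1%), which were the release factor gene Mtrf1l (8.33-fold), the elongation factor gene Tufm (6.26-fold) and Gfm2 (4.70-fold), which acts in ribosome recycling. Mitochondrial aminoacyl-tRNA synthetases had one in 4 of 17 (23.5%, interval 6.81 to 49.9%), led by Nars2 (6.25-fold) and Mars2 (6.06-fold).

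As the groups most alike in function, genes for cytosolic ribosomal proteins carried TDG at an end in 16 of 85 cases (18.8%, interval 11.2 to 28.8%) and respiratory chain subunit genes in 13 of 87 (14.9%, interval 8.20 to 24.2%). Both intervals overlapped that of the mitochondrial ribosomal protein genes. The respiratory chain list also holds ATP synthase genes (Atp5 symbols), of which Atp5g2 and Atp5g1 had a peak. The median fold enrichment was 5.34 for the 16 mitochondrial ribosomal peaks, 5.90 for 16 cytosolic ribosomal ones and 6.20 for 14 respiratory chain ones. Differences between these groups were not tested.

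**Figure D5:**
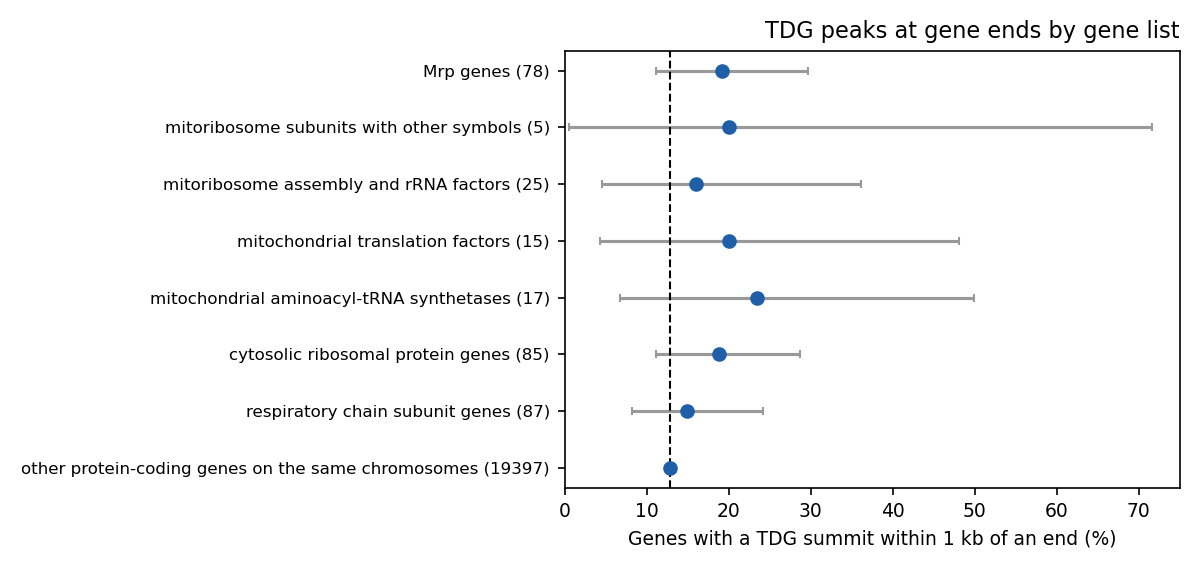
Share of genes with a TDG summit within 1 kb of an end (x axis, %) for mitochondrial ribosomal protein genes, labelled Mrp genes, and other gene lists, with exact binomial 95% intervals and the number of genes in brackets. The dashed line is the 12.8% of other protein-coding genes on the same chromosomes. It lies inside the interval of every list shown.

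p53 was assigned to 1 of the 78 members (1.28%, interval 0.0320 to 6.94%), counted as a p53 summit in the gene or nearer to its end than to any other gene's. For other protein-coding genes on the same chromosomes it was 104 of 19397 (0.536%), inside that interval. The member was Mrpl45, whose product binds the inner membrane and anchors the mitochondrial ribosome there. Its p53 peak (chromosome 11, 97310158 to 97310440) was 17.9-fold with 67 reads at the summit, rank 42 of 126, against a list median of 13.5 and quartiles of 7.96 and 22.4. The summit was 4600 bases from the lower end of Mrpl45 (97314923 to 97329920), the side of its start. It was outside every protein-coding gene and inside the record of Gm31005, a long non-coding RNA gene. The nearest TDG summit was 122047 bases from that p53 summit, and Mrpl45 itself had no TDG peak at an end.

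No other member had a p53 summit within 100 kb of an end. The nearest were at Mrps11 (102956 bases) and Mrpl46 (112855 bases), and 3 members, Mrpl52, Mrpl57 and Mrps16, were on chromosome 14, which had no p53 peak. Peaks of both proteins, TDG at an end and p53 as assigned, were found for 0 of 78 members and for 21 of the 19397 other genes (0.108%). In the other lists p53 was assigned to 1 of 17 mitochondrial aminoacyl-tRNA synthetase genes (5.88%, interval 0.149 to 28.7%) and 2 of 85 cytosolic ribosomal genes (2.35%, interval 0.286 to 8.24%). Both intervals held the 0.536% of other genes. The first was Lars2, for leucyl-tRNA, whose 3.49-fold peak lay below the lower quartile of the p53 list, 7.96. The cytosolic ones were Rps27l (20.5-fold), a known p53 target, and Rps19 (13.7-fold). p53 was assigned to 0 of 87 respiratory chain genes, 0 of 25 assembly and ribosomal RNA factors, 0 of 15 translation factors and 0 of 5 further subunits.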

How the data were processed

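The peak lists of 2 libraries were used as deposited. Per the submitters' processing notes, the tools named are MACS2, Bowtie2, ChIPseeker, deepTools, Picard and Trim Galore and the build is mm10, with no role or version stated. Which library served as control and at which threshold peaks were called is not given in the sources used here. Columns are, per the layout the authors deposited, positions in bases, fold enrichment (a ratio at the summit), −log10 p, −log10 q and a score, which is not used here. The lowest deposited −log10 q was 3.02 for TDG and 3.74 for p53. Library totals are not in the lists, so the depth of each library is unknown. Summit reads and local backgrounds were recovered from the deposited fold and p, which MACS2 computes from the same pair of numbers, with the reads scaled by 0.924 for TDG and 0.7924 for p53. The scale, and the solution for each peak, were chosen to bring the summits closest to whole reads. All solved summits (3409 TDG, 123 p53) were then whole reads within 0.05, which is a fit and not a separate check.

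Genes came from RefSeq GRCm38.p6, with starts and strands from its promoter table. Each p53 peak went to any gene containing the summit, and also to whichever gene ended closest. Close neighbours, CpG bins, CpG-rich promoters and chromosome rates were set beside the calls after the data were seen. Every member with a peak was named, and in other lists up to 4 by fold enrichment. The members and lists were chosen with earlier results of these data known. Symbols gave 5 of 6 further subunits, since Ict1 is Mrpl58 in this annotation. Scripts were tested on simulated data. Python 3.11.15, pandas 2.3.3 and scipy 1.17.1 were used. Alternatives were other windows, stricter peaks, other backgrounds and other assignments.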

Additional observations from a re-analysis of the deposited data

How the results depend on the processing

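The count of 15 members with a TDG peak at an end lay between 13 and 16 under these alternatives: windows of 500 bases and 3 kb, a −log10 q of at least 5, any base of the peak in the window, no peaks of high local background, all placed chromosomes as background, and added subunits. With only peaks of at least the median fold it was 4 (5.13%, against 6.91% of other genes), and Mrpl41 and Mrps6, at 5.73-fold, lay just under that median of 5.74. With peaks at the ends of 1 protein-coding gene alone, added after seeing the data, that count was 6 (7.69%, against 8.65%). In both, the members' share was below that of other genes, and fewer peaks were counted. The 14 starts with a peak became 13 with a 500 base window and with the outer end of the gene record as the start, and the p53 count stayed at 1. The median percentile of the member peaks in the TDG list was 35.7 by fold enrichment and 29.9 by −log10 q. No paired analysis was possible because each list is 1 library. With 78 genes, the members' 19.2% (interval 11.2 to 29.7%) could not be told apart from the 12.8% of other genes. Peaks under the authors' threshold were not seen.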
